A study of Mus musculus with 5 samples.

Results

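The 33 genes described here encode enzymes that break down or rebuild glucose and fructose, feed the pentose phosphate pathway, or store and use glycogen and glucuronate. They were matched by gene name among the 35478 genes listed for kidney RNA, and all 33 had enough reads to be tested. Their roles were hexose phosphorylation (3 genes), the phosphofructokinase step (5), upper and lower glycolysis (9), pyruvate and lactate (4), fructose and gluconeogenesis (3), the pentose phosphate pathway (4), and glycogen and glucuronate (5).

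Glycolysis splits glucose into pyruvate in the cytosol, and hexokinase, phosphofructokinase and pyruvate kinase catalyse its irreversible steps. In the kidney, proximal tubule cells make glucose by gluconeogenesis, metabolise fructose through ketohexokinase and rely mainly on mitochondrial oxidation, whereas distal nephron segments use more glycolysis. The pentose phosphate pathway supplies NADPH and ribose phosphate, and several of its genes are known targets of the antioxidant transcription factor NRF2.

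RNA-seq was conducted on kidney tissue (cortex in the study's methods) from 2 Prdm16fl/fl mice (mice 1 and 3) and 3 Ksp-Cre/Prdm16fl/fl mice (mice 1, 2 and 3) with unilateral ischemia-reperfusion injury (UIRI). The mice were males aged 7 to 8 weeks, with littermates as controls, and their labels give the strain as C57BL/6J;129 in one field and as C57BL/6J in another. Blood flow to the left kidney was stopped for 35 minutes with the mouse on a metal bath held at 38.5°C. The uninjured kidney was taken on day 10, and tissue was collected 24 hours after that, on day 11. Every mouse carried the floxed Prdm16 allele and the injury, and libraries of uninjured mice or of mice with Ksp-Cre alone are not analysed here. Cre was driven by the Ksp (Cdh16) promoter, which is active in tubular epithelial cells. Each library was 1 mouse and held 14939040 to 16425161 counts. Prdm16 itself had 25.28 and 20.02 CPM (TMM-scaled counts per 1000000) in the Prdm16fl/fl mice and 17.14, 16.95 and 17.99 CPM in the Ksp-Cre/Prdm16fl/fl mice, a log2 fold change of -0.38 (SE 0.15, edgeR adjusted p = 0.259). Counts per gene cannot show the loss of the floxed exon alone. In bulk tissue, fewer cells of a type and less RNA per cell cannot be told apart.

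Ksp-Cre/Prdm16fl/fl mouse 3 stood apart from the other mice of its genotype over all genes, and these enzymes were no exception. Its level lay outside the range of mice 1 and 2 in 30 of the 33 genes and in 86.03% of all genes tested. Its median distance from their mean was 0.27 over the enzymes and 0.34 over all genes on the log2 CPM scale, and the median distance between mice 1 and 2 was 0.097 and 0.14. In 6 of the 33 genes (Hk3, Eno2, Fbp2, G6pdx, Pgd and Taldo1) mouse 3 lay at least 0.5 from that mean. The same held for 35.4% of all genes tested. Only Hk2 of the 33 differed that much between mice 1 and 2. Values without mouse 3 stand beside several of the enzymes whose call, sign or size depends on it. Without that mouse, the log2 fold changes of Pfkfb3, Pkm and Ldhb also turned sign, to -0.047, -0.0043 and 0.061. That of Pfkl went from -0.16 to -0.019.

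Fbp1, the gene of the gluconeogenic enzyme fructose-1,6-bisphosphatase, fell in the Ksp-Cre/Prdm16fl/fl kidneys, and it was the only enzyme of the set called by edgeR. In the edgeR quasi-likelihood test with Benjamini-Hochberg adjustment over 16394 genes, 1 of the 33 genes was lower at an adjusted p under 0.05, where 0.872% of all genes tested were lower, and 0 were higher, where 0.104% of all genes were higher. At an unadjusted p under 0.05 the test gave 5 lower and 4 higher genes, beside 11.2% and 7.64% of all genes tested. DESeq2 called 4 lower genes of the set (Fbp1, Khk, Tpi1 and Akr1a1) and 3 higher ones (Hk2, Pfkp and Pklr), with 5.96% and 2.04% of all genes. All 3 Ksp-Cre/Prdm16fl/fl mice were below both Prdm16fl/fl mice in 11 of the 33 genes and above both in 7. The same held for 21.3% and 20.3% of all genes tested.

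The fitted differences of the 33 genes ran from -1.04 to 1.03 on the log2 scale. The median was -0.11, and the median of all genes was 0.038. Scaling moved both medians: scaled by library size they were -0.0067 and 0.15, and on the log2(TPM + 1) scale they were 0.11 and 0.23, so the sign of the set's median flipped on the TPM scale. Relative to all genes, the set lay at -0.15, -0.16 and -0.11 under the 3 scalings. Without Ksp-Cre/Prdm16fl/fl mouse 3 the test called 8 genes of the set, 5 lower and 3 higher, against 10.9% and 7.79% of all genes. The 5 lower genes were Fbp1, Khk, Tpi1, Akr1a1 and Pfkm, and the 3 higher genes were Hk2, Pfkp and Pklr.

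**Figure D1:**
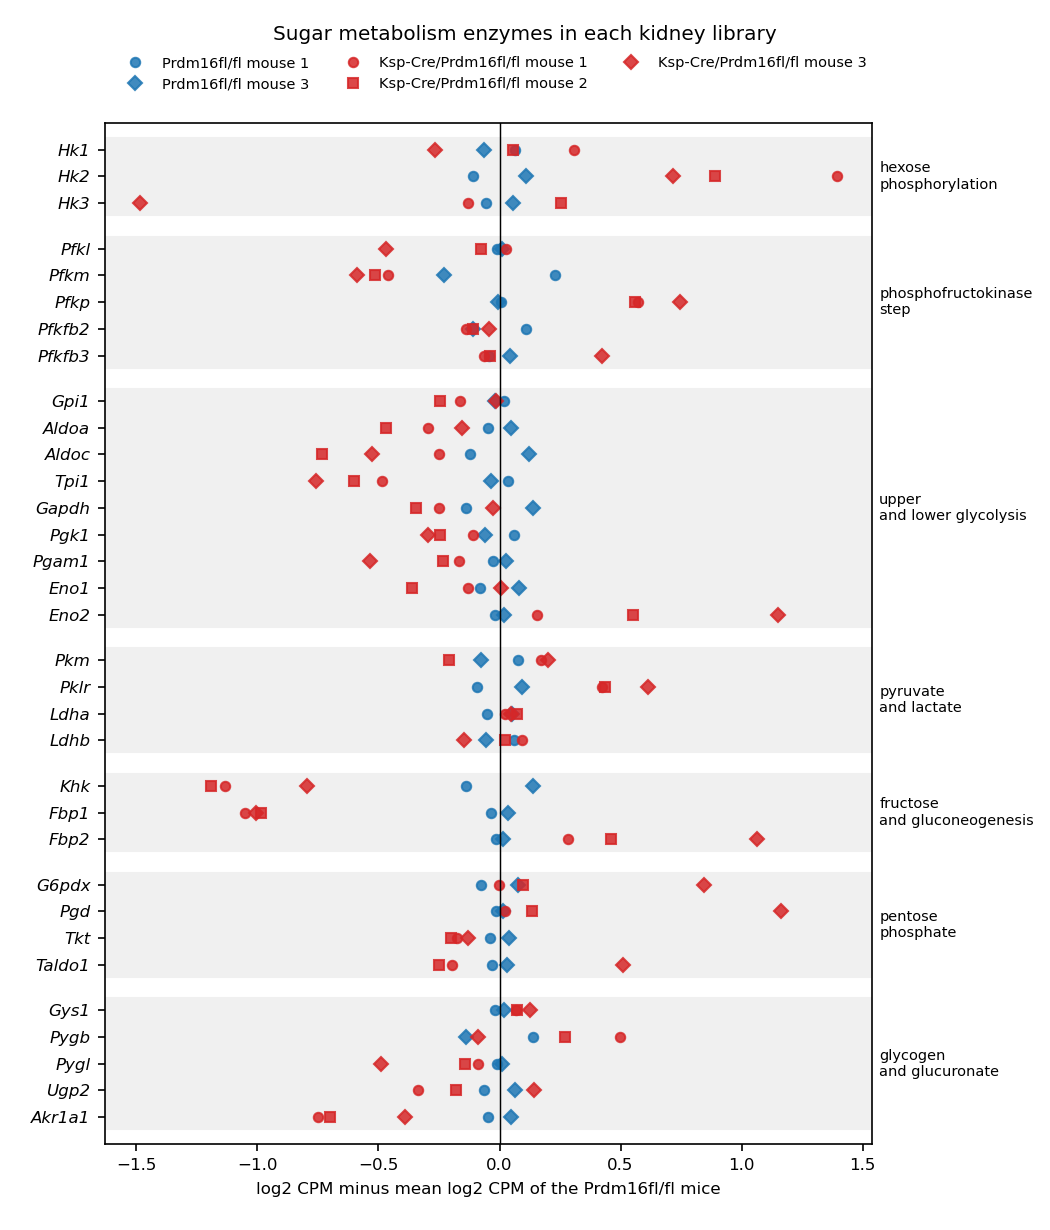
Each point is 1 library, and the x axis gives log2 CPM minus the mean log2 CPM of the 2 Prdm16fl/fl mice, with the 33 genes in rows by role. Fbp1 and Khk lay about 1 log2 unit to the left in all 3 Ksp-Cre/Prdm16fl/fl mice, and mouse 3 (red diamonds) lay apart for Hk3, Eno2, Fbp2, G6pdx, Pgd and Taldo1.

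Promoter windows of RefSeq (build GRCm38.p6, 250 bases before to 50 after each start) were matched for 33 of the 33 genes and gave 50 windows, some of which overlap within a gene. Those of Hk2, Khk and Fbp1 are shown because their fitted differences were past 1 on the log2 scale. That of Pklr is shown because its promoter is a textbook target of carbohydrate signalling. Capitals mark motifs found on either strand: the hypoxia response core ACGTG, the E-box CACGTG (which contains that core), the carbohydrate response element (CACGGG and CCCGTG set 5 bases apart) and the antioxidant response element core TGACNNNGC.
Hk2, chr6:82774405-82774704, minus strand: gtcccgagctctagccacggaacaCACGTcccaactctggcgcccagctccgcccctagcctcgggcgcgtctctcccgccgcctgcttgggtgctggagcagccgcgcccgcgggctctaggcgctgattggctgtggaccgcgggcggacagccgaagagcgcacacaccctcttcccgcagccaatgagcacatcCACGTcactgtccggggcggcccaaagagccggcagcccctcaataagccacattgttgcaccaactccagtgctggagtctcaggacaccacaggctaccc
Khk, chr5:30921309-30921608, plus strand: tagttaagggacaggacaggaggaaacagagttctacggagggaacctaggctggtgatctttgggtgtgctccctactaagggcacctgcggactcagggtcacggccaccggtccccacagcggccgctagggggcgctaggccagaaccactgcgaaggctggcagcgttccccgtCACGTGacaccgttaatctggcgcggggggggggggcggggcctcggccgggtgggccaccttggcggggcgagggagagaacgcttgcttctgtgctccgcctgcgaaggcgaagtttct
Fbp1, chr13:62888233-62888532, minus strand: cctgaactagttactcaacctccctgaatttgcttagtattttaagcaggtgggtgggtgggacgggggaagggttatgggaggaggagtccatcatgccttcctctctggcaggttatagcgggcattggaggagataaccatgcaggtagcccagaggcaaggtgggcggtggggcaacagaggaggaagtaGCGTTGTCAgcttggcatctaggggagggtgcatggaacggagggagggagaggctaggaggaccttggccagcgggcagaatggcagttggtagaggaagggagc
Pklr, chr3:89136373-89136672, plus strand: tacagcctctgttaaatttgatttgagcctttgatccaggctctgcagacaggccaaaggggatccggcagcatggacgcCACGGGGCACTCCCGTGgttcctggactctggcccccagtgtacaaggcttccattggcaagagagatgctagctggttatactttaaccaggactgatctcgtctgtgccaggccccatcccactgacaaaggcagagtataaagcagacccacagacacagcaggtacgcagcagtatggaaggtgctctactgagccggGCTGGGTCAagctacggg
The letters searched for the carbohydrate response element are those of the known Pklr site, so its match to Pklr, at position -170 from the start, and its rarity (1 of 32851 windows, 0.00304%) were set by that choice. The hypoxia response core was in 24 of the 50 windows of the set (48.0%) and in 19.6% of all windows, and Hk2 and Khk were among the 20 genes with it. The E-box was in 6 windows of the set and in 7.15% of all, and the Khk window held it at position -71. The antioxidant core was in 7 windows of the set (14.0%) and in 12.4% of all. The 7 were of Hk1, Aldoa, Pklr, Fbp1, Fbp2, G6pdx and Pgd. The GC box GGGCGG, searched too and not marked by capitals, was in 27 windows of the set (54.0%) and in 35.7% of all. The windows of the set and all windows were not matched for GC content. A match is a run of letters and no measured binding, and the data hold no binding or methylation values for these windows.

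The fructose gene Khk and the gluconeogenic gene Fbp1 had the lowest fitted differences of the set. Fbp1 (chr13:63012567-63036112 in the files) was at 679.8 and 715.5 CPM in the Prdm16fl/fl mice and at 336.7, 352.3 and 347.1 CPM in the Ksp-Cre/Prdm16fl/fl mice. The groups did not overlap, and the SD of the Ksp-Cre/Prdm16fl/fl mice was 7.96 CPM (n = 3). The level was 2.02-fold lower, a log2 fold change of -1.01 (SE 0.12, edgeR adjusted p = 0.0412). Over the alternative fits the adjusted p ran from 8.14e-13 to 0.485, and it was 0.000872 without Ksp-Cre/Prdm16fl/fl mouse 3. Leaving out any other mouse ended the call, as did scaling by library size, the TPM scale and a correction for the length and GC content of genes.

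Khk, which encodes the ketohexokinase that phosphorylates fructose, was at 441.7 and 535.4 CPM in the Prdm16fl/fl mice and at 221.6, 213.1 and 280.4 CPM in the Ksp-Cre/Prdm16fl/fl mice. The groups did not overlap, and mouse 3 was the highest of the Ksp-Cre/Prdm16fl/fl mice. Its log2 fold change of -1.04 (SE 0.18) did not pass the edgeR threshold (adjusted p = 0.0549), and the p was 0.000874 without Ksp-Cre/Prdm16fl/fl mouse 3. Fbp2, the second fructose-1,6-bisphosphatase, best known from muscle, was at 23.7 and 24.2 CPM against 29.18, 32.96 and 50.04 CPM. All 3 Ksp-Cre/Prdm16fl/fl mice were above both controls, mouse 3 most of all, with a log2 fold change of 0.64 (SE 0.25, edgeR adjusted p = 0.245) that was 0.38 without mouse 3. Skeletal muscle markers were close to absent, with a sum over 5 genes of 0.80 to 2.01 CPM in every library and Myh4 at 0 in all of them.

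Proximal tubule markers were, like Fbp1 and Khk, fitted lower. Among the Ksp-Cre/Prdm16fl/fl mice, the summed markers and Fbp1 were lowest in mouse 1 and highest in mouse 2. Khk was lowest in mouse 2 and highest in mouse 3. All 12 of the 12 markers were fitted lower in the Ksp-Cre/Prdm16fl/fl mice, 2 of them at an edgeR adjusted p under 0.05. In 11 of them the groups did not overlap. Over all genes tested, 0.872% were called lower, and 21.3% had groups that did not overlap in that direction. The proximal tubule markers summed to 12590 and 12970 CPM in the Prdm16fl/fl mice and 5194, 6229 and 5394 CPM in the Ksp-Cre/Prdm16fl/fl mice. None of them was at 0. The 9 tubular injury markers were all fitted higher, 8 at an unadjusted and 0 at an adjusted p under 0.05 in edgeR. Over all genes tested, 7.64% and 0.104% were higher at those thresholds. The injury markers summed to 13540 and 14650 CPM against 29210, 30390 and 36190 CPM. The part of either change in the levels of the enzymes was not tested.

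**Figure D2:**
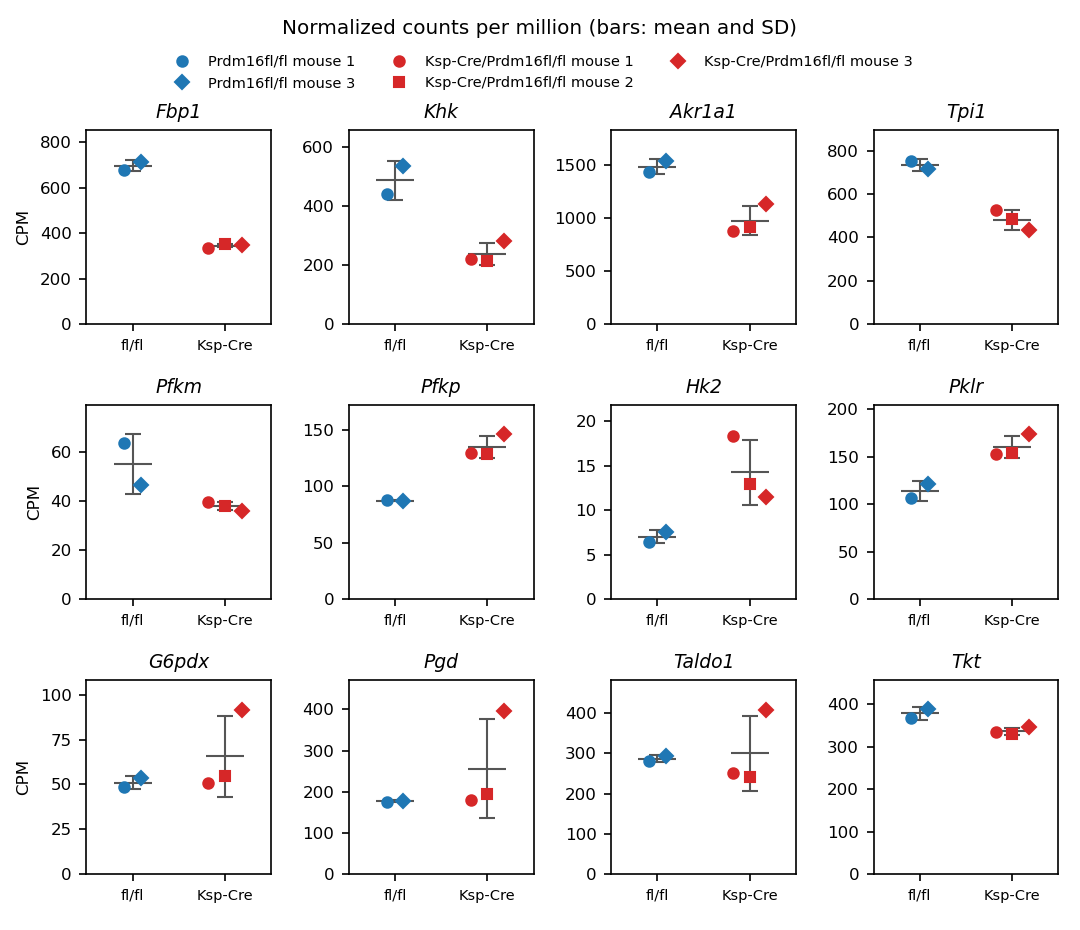
CPM of 12 enzymes by genotype, 1 point per mouse, with the mean and SD of 2 Prdm16fl/fl (fl/fl) and 3 Ksp-Cre/Prdm16fl/fl (Ksp-Cre) mice as bars, each axis starting at 0. Fbp1, Khk, Akr1a1, Tpi1 and Pfkm were lower and Pfkp, Hk2 and Pklr higher in every Ksp-Cre/Prdm16fl/fl mouse, and in the bottom row mouse 3 was alone in its high G6pdx, Pgd and Taldo1.

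Hexokinases trap glucose in the cell by phosphorylation, and Hk2 is the form induced by insulin and hypoxia. Hk2 (chr6:82702004-82751435 in the files) was at 6.47 and 7.53 CPM in the Prdm16fl/fl mice and at 18.3, 12.9 and 11.5 CPM in the Ksp-Cre/Prdm16fl/fl mice. The groups did not overlap, with mouse 1 highest, and the log2 fold change of 1.03 (SE 0.26) did not pass the edgeR test (adjusted p = 0.119). Without mouse 3 it was 1.17 with an edgeR adjusted p of 0.00649, and DESeq2 on all 5 libraries gave an adjusted p of 0.0182. It rests on 96 to 323 counts per library. Hk1, the form found in most tissues, was at 117.4 and 107.3 CPM against 138.9, 116.5 and 93.1 CPM, and the groups overlapped. Hk3, known from myeloid cells, was at 5.39 and 5.81 CPM against 5.11, 6.67 and 1.999 CPM, and Ksp-Cre/Prdm16fl/fl mouse 3 was far below the rest. Its log2 fold change was -0.28 (SE 0.48) and turned to 0.075 (SE 0.21) without that mouse. The summed level of the 10 macrophage and monocyte markers was also lowest in that mouse. It was 1073 and 1490 CPM in the Prdm16fl/fl mice and 1768, 1633 and 979.7 CPM in the Ksp-Cre/Prdm16fl/fl mice. Their median log2 CPM difference from the Prdm16fl/fl mean was instead lowest in Prdm16fl/fl mouse 1 (-0.18), against -0.031 in Ksp-Cre/Prdm16fl/fl mouse 3. None of these markers was at 0, and their part in the Hk3 level was not tested.

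Phosphofructokinase commits fructose 6-phosphate to glycolysis, and its platelet (Pfkp), muscle (Pfkm) and liver (Pfkl) subunits had fitted differences of unlike sign and size. Pfkp was at 87.8 and 87.0 CPM in the Prdm16fl/fl mice and at 129.8, 128.9 and 146.5 CPM in the Ksp-Cre/Prdm16fl/fl mice. Every Ksp-Cre/Prdm16fl/fl mouse was above both controls, with a log2 fold change of 0.63 (SE 0.12, edgeR adjusted p = 0.0666) that was 0.57 without mouse 3 (edgeR adjusted p = 0.00492). Pfkm was at 63.6 and 46.4 CPM against 39.4, 38.0 and 36.1 CPM, below both controls in every Ksp-Cre/Prdm16fl/fl mouse (log2 fold change -0.54, SE 0.16, edgeR adjusted p = 0.154). Without mouse 3 it was -0.50 (edgeR adjusted p = 0.0484). The spread between the Prdm16fl/fl mice (SD 12.2 CPM, n = 2) was wide for Pfkm. Pfkl was at 52.1 and 52.9 CPM against 53.5, 49.8 and 38.0 CPM, and the groups overlapped. Among the bifunctional enzymes that set the level of the main activator of phosphofructokinase, Pfkfb2 had a log2 fold change of -0.10 (SE 0.12) and Pfkfb3 of 0.12 (SE 0.18), both with overlapping groups.

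From glucose 6-phosphate isomerase to enolase, 8 of 9 genes were fitted lower and Eno2 higher, none past the threshold, and on the TPM scale Gpi1, Gapdh, Pgk1 and Eno1 of the 8 turned to fitted higher. Tpi1, the triosephosphate isomerase gene, had the lowest fitted difference of these, with 755.1 and 717.5 CPM against 525.7, 485.6 and 434.7 CPM. The groups did not overlap, and the log2 fold change was -0.61 (SE 0.14, edgeR adjusted p = 0.103) and -0.54 without mouse 3 (edgeR adjusted p = 0.0132). The aldolase genes Aldoa and Aldoc and the phosphoglycerate genes Pgk1 and Pgam1 also had all 3 Ksp-Cre/Prdm16fl/fl mice below both controls, with log2 fold changes of -0.30, -0.49, -0.22 and -0.30. For Gapdh (186.3 and 226.0 CPM against 172.7, 161.6 and 201.1 CPM), Gpi1 and Eno1 the groups overlapped, and their log2 fold changes were -0.21, -0.14 and -0.16. Eno2, the neuronal form of enolase, was at 7.01 and 7.18 CPM against 7.89, 10.4 and 15.7 CPM, with mouse 3 highest (log2 fold change 0.67, SE 0.32, edgeR adjusted p = 0.323), and without that mouse the log2 fold change was 0.37. Several of these genes, such as Gapdh, Aldoa, Pgk1, Tpi1, Pgam1 and Eno1, have processed copies in the mouse genome that can share their reads, so their counts are uncertain. The copy Eno1b held 8.36 to 11.3 CPM.

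At the end of glycolysis, Pklr, the liver and red cell pyruvate kinase that is also expressed in proximal tubule, was at 106.7 and 121.2 CPM in the Prdm16fl/fl mice and at 152.4, 153.9 and 173.8 CPM in the Ksp-Cre/Prdm16fl/fl mice. Every Ksp-Cre/Prdm16fl/fl mouse was above both controls (log2 fold change 0.49, SE 0.13, edgeR adjusted p = 0.127), and without mouse 3 it was 0.43 (edgeR adjusted p = 0.0229). The 5 erythroid markers were fitted higher in the same mice, 0 of them at an adjusted and 5 at an unadjusted p under 0.05 in edgeR. Over all genes tested, 0.104% and 7.64% were higher at those thresholds. The erythroid markers had sums of 6.67 and 10.8 CPM against 151.2, 150.3 and 40.5 CPM, and none was at 0. Pklr was highest in mouse 3, where that sum was the lowest of the genotype, and the part of blood cells in the Pklr level was not tested. The other pyruvate kinase gene, Pkm, was at 311.6 and 280.6 CPM against 332.9, 255.5 and 339.4 CPM. Ldha and Ldhb, which interconvert pyruvate and lactate, had log2 fold changes of 0.047 (SE 0.13) and -0.0085 (SE 0.16) and overlapping groups. Scaled by library size or on the TPM scale, the fitted difference of Ldhb turned to 0.11 and 0.23.

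**Figure D3:**
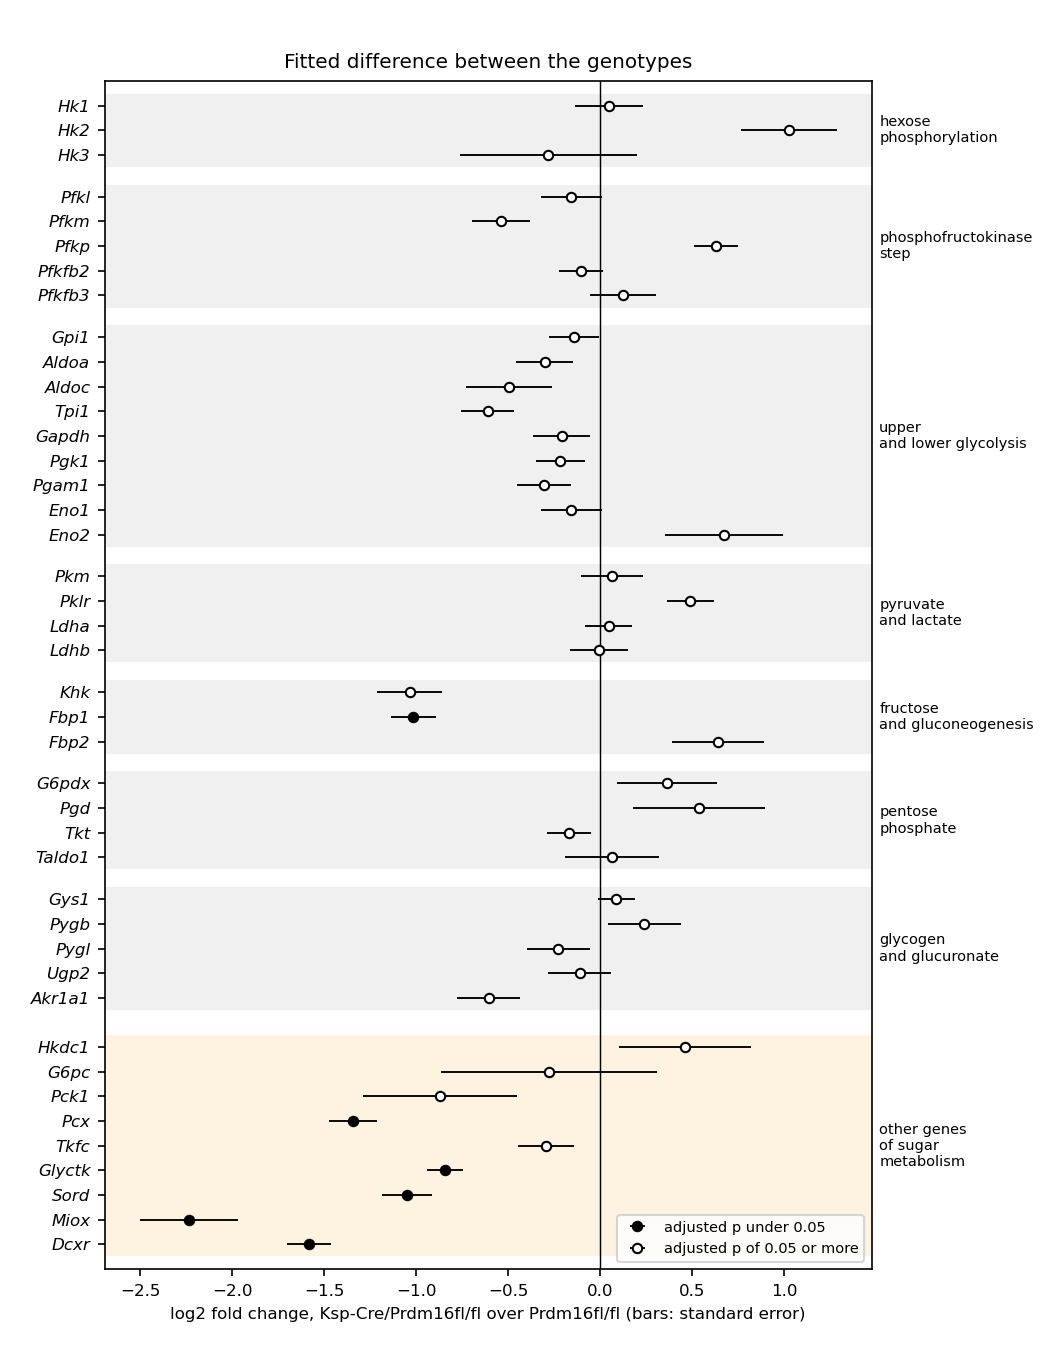
Log2 fold change of Ksp-Cre/Prdm16fl/fl over Prdm16fl/fl kidneys from edgeR, with the standard error as a bar, for the 33 enzymes and 9 other genes of sugar metabolism. Filled points had an adjusted p under 0.05: Fbp1 among the 33, and Pcx, Glyctk, Sord, Miox and Dcxr among the others, all to the left of 0.

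In the pentose phosphate pathway G6pdx, Pgd and Taldo1 were far higher in Ksp-Cre/Prdm16fl/fl mouse 3 than in the other 4 mice. G6pdx, the glucose 6-phosphate dehydrogenase gene that opens the pathway, was at 48.3 and 53.8 CPM in the Prdm16fl/fl mice and at 50.9, 54.5 and 91.5 CPM in the Ksp-Cre/Prdm16fl/fl mice. Pgd, which encodes the next dehydrogenase, was at 175.1 and 178.3 CPM against 179.7, 193.9 and 396.0 CPM. Taldo1, the transaldolase gene of the branch that returns carbon to glycolysis, was at 280.2 and 292.5 CPM against 249.9, 240.7 and 407.8 CPM. With mouse 3 the log2 fold changes were 0.36 (SE 0.27), 0.54 (SE 0.36) and 0.064 (SE 0.25), and without it they were 0.050, 0.084 and -0.22, so that of Taldo1 changed sign. The edgeR adjusted p values were 0.515, 0.471 and 0.915. Tkt, the transketolase gene of the same branch, lacked the high value of mouse 3, with 367.6 and 388.8 CPM against 334.9, 328.8 and 345.6 CPM. With 1 mouse there is no replicate of this pattern.

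Among the genes of glycogen and glucuronate, Akr1a1 differed most. It encodes the aldehyde reductase that reduces glucuronate, and it was at 1434 and 1533 CPM in the Prdm16fl/fl mice and at 880.6, 912.4 and 1130 CPM in the Ksp-Cre/Prdm16fl/fl mice. The groups did not overlap (log2 fold change -0.61, SE 0.17, edgeR adjusted p = 0.142), and the adjusted p was 0.00424 without mouse 3. The glycogen phosphorylase genes Pygb and Pygl had log2 fold changes of 0.24 (SE 0.20) and -0.23 (SE 0.17). Pygl, the liver form, was at 19.3 and 19.6 CPM against 18.3, 17.6 and 13.9 CPM, below both controls in each case. Glycogen synthase, Gys1, was at 46.3 and 47.6 CPM against 49.2, 49.3 and 51.2 CPM, slightly above both controls in each mouse (log2 fold change 0.089, SE 0.10). Of the exon bases of Gys1, 7.88% overlap the gene Ruvbl2 on the other strand, the largest such overlap among 12 of the 33 genes that have one (Pfkp 2.42%, Tpi1 2.31%, Pklr 1.30%, Pfkm 0.54%). Whether counting used the strand is not given in the sources used here. Ugp2, which makes UDP-glucose, had overlapping groups and a log2 fold change of -0.11 (SE 0.17).

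Levels were compared between genes on the TPM scale, which divides counts by gene length. Ldhb had the highest level in both genotypes, with 2581 ± 324 TPM (SD, n = 2) in Prdm16fl/fl and 3035 ± 439 TPM (SD, n = 3) in Ksp-Cre/Prdm16fl/fl kidneys, and Akr1a1 was next with 2292 ± 49.5 and 1770 ± 126 TPM. In the Prdm16fl/fl mice these were followed by Tpi1 (1098 ± 115 TPM), Eno1 (1064 ± 8.79), Aldoa (933 ± 20.1), Fbp1 (888 ± 29.1) and Khk (614 ± 41.1). Tpi1 and Eno1, next to each other in that order, differed by less than the SD of Tpi1, and so did Ldhb and Akr1a1 by less than that of Ldhb. In the Ksp-Cre/Prdm16fl/fl mice Fbp1 (519 ± 33.5 TPM) moved from rank 6 to rank 8 of the 33 genes, and Khk (353 ± 30.1 TPM) from rank 7 to rank 10. Hk2 had the lowest level in the Prdm16fl/fl mice (2.54 ± 0.098 TPM) and Hk3 in the Ksp-Cre/Prdm16fl/fl mice (3.48 ± 1.92 TPM), where Hk2 (6.18 ± 1.85 TPM) ranked 31.

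**Figure D4:**
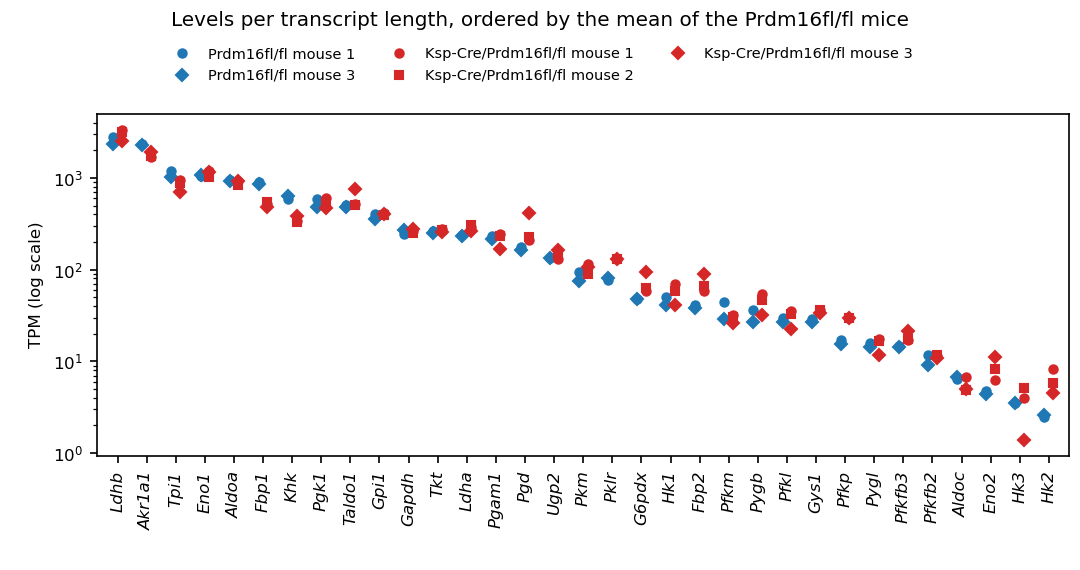
TPM of the 33 enzymes on a log axis, ordered by the mean of the Prdm16fl/fl mice, with 1 point per mouse. Levels spanned from 2581 TPM for Ldhb to 2.54 TPM for Hk2 in the Prdm16fl/fl mice, and the points of Fbp1 and Khk were lower in red (Ksp-Cre/Prdm16fl/fl) than in blue (Prdm16fl/fl).

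Shares of related isoenzymes within a library do not depend on how libraries are scaled, and 11 such shares of summed TPM were compared with exact two-sided permutation tests over the 5 libraries, which cannot give a p below 0.2. In 7 of the 11 shares the genotypes did not overlap, each at that smallest p of 0.2. Levels of single genes did not overlap, lower or higher, in 21.3% and 20.3% of all genes tested. Shares within a family also depend on each other. Eno1, among the 7, held 98.06% of enolase TPM in both Prdm16fl/fl mice against 98.04%, 97.57% and 96.59%. Taken from counts, its share gave a permutation p of 0.6. Pfkp made up 18.9% and 21.5% of the phosphofructokinase TPM in the Prdm16fl/fl mice and 30.6%, 31.7% and 38.2% in the Ksp-Cre/Prdm16fl/fl mice. Pfkm held 48.6% and 40.7% against 32.94%, 33.04% and 33.27%, and the share of Pfkl overlapped between the genotypes in TPM. Taken from counts, the share of Pfkl differed by -5.60 percentage points, at the smallest permutation p of 0.2. By TPM the leading phosphofructokinase gene was Pfkm in both Prdm16fl/fl mice, Pfkl in mice 1 and 2 with Ksp-Cre and Pfkp in mouse 3. This order rests on the gene lengths used, and in CPM, which ignore length, Pfkp was highest in all 5 libraries. Hk2 held 4.42% and 5.51% of hexokinase TPM against 10.1%, 8.40% and 9.67%, with Hk1 at 84.1% to 89.2% in all 5 libraries. Fbp1 held 95.7% and 95.8% of the TPM of both fructose-1,6-bisphosphatases against 89.9%, 89.2% and 84.2%. Pkm held 54.5% and 48.7% of pyruvate kinase TPM against 47.2%, 40.5% and 44.4%, and Pygb held 69.7% and 65.1% of the TPM of Pygb and Pygl against 75.7%, 73.4% and 73.2%. Ldha held 7.84% and 8.99% of the TPM of Ldha and Ldhb against 8.03%, 8.68% and 9.49%, which overlapped.

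**Figure D5:**
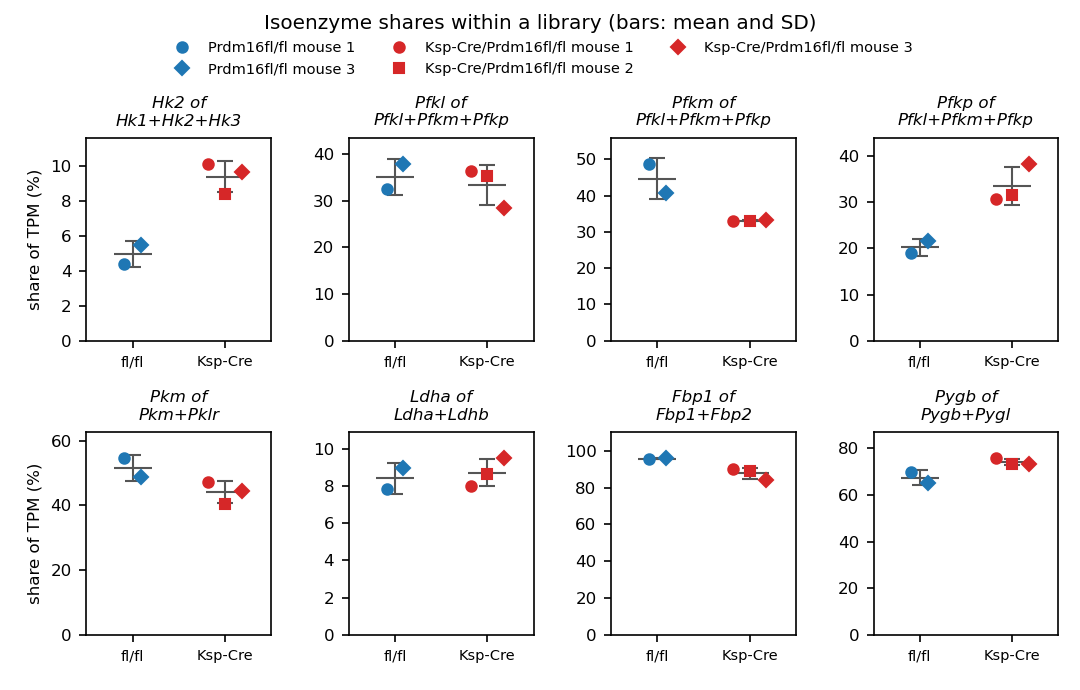
Share of TPM that 1 isoenzyme held within its family, in percent, for 8 of the 11 shares, with 1 point per mouse and the mean and SD as bars, each axis starting at 0. Pfkp and Hk2 were higher and Pfkm and Fbp1 lower in all 3 Ksp-Cre/Prdm16fl/fl mice, while Pfkl and Ldha overlapped.

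Another 67 genes of sugar metabolism were listed, of which 61 were tested. The median log2 fold change of the 61 was -0.22, and that of all genes tested was 0.038. At an adjusted p under 0.05 in the edgeR test, 0.872% of all genes were lower and 0.104% higher. Of the 61 genes, 5 fell and 0 rose at that threshold. In order of size they were Miox (log2 fold change -2.23, SE 0.27), which starts inositol breakdown in the proximal tubule, Dcxr (-1.58, SE 0.12), the xylulose reductase gene of the same route, and Pcx (-1.34, SE 0.13), pyruvate carboxylase of gluconeogenesis. Sord (-1.05, SE 0.14), which makes fructose from sorbitol, and Glyctk (-0.84, SE 0.099), which phosphorylates the glycerate left by fructose breakdown, followed. For Miox the levels were 911.3 and 921.0 CPM against 211.7, 242.6 and 129.9 CPM, and the edgeR adjusted p of the 5 genes ran from 0.0242 to 0.0412. Leaving out any mouse other than Ksp-Cre/Prdm16fl/fl mouse 3 ended all 5 calls. The rate-setting gluconeogenic genes varied between mice. Pck1 was at 5424 and 7357 CPM against 2184, 2754 and 5556 CPM, and G6pc at 194.6 and 223.5 CPM against 104.7, 82.2 and 331.3 CPM. In both, Ksp-Cre/Prdm16fl/fl mouse 3 was the high one of its genotype, and the log2 fold changes of -0.87 (edgeR adjusted p = 0.328) and -0.28 (0.833) were -1.37 and -1.16 without it. The fructose gene Tkfc had -0.29 (SE 0.15), and Hkdc1, a hexokinase-like gene, 0.46 (SE 0.36).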

How the data were processed

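Kidney RNA-seq of 2 Prdm16fl/fl and 3 Ksp-Cre/Prdm16fl/fl mice was analysed, 1 library per mouse, grouped by genotype from the labels. The 33 enzymes, the other lists and the tests were chosen with earlier results of these data known.

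The authors deposited raw counts per gene, and beside them TPM and FPKM made from those counts by gene length and library total. FPKM values were not used. TPM recomputed from the counts differed by at most 4.65e-06. The submitters' processing notes name CASAVA, featureCounts 2.0.1, DESeq2 1.16.1 and the build hg38, a human build, although the positions in the files are on mouse chromosomes. The aligner, the mouse build and the strand setting are not given in the sources used here, so counts of overlapping genes are uncertain, and positions are printed as the files give them. Broken lines of 5 genes were joined again, and mitochondrial genes were not analysed here.

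Counts of the 16394 genes kept by filterByExpr were scaled by TMM and tested with the quasi-likelihood test of edgeR 4.0.16 (R 4.3.3) without covariates. A call was a p under 0.05 after Benjamini-Hochberg adjustment over all genes. CPM are per 1000000 TMM-scaled counts. All values rest on 14939040 to 16425161 counts per library. No labels tie the mice to litters or days, so p-values measure the spread between these mice. No pair of libraries was a duplicate: the chi-square per degree of freedom was 9.89 for the closest pair. The genes named are the 33 enzymes, Tkfc, G6pc, Pck1, Hkdc1, each called gene of the other lists, Prdm16, and marker lists by counts and sums, and Eno1b, chosen after its values were seen. Values of 1 further gene and a share that needs it are not reported here. Alternatives were DESeq2 1.42.0, other filters (1 count in total, or 10 in every library), library size or upper quartile scaling, the mouse number as a block, leaving out each mouse, limma 3.58.1 on log2(TPM + 1) and log2(TPM + 0.1) for genes with a TPM of at least 1 in 2 libraries, a log2 fold change of 1 added to the threshold, shares of counts, and, added after the values were seen, a loess correction (span 0.3) for length and GC content over 15222 genes. The edgeR test, and no other, was also run on simulated counts drawn with the levels and dispersions of the main fit. Tables and figures were made with Python 3.11.15, pandas 2.3.3 and matplotlib 3.10.9.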

Additional observations from a re-analysis of the deposited data

How the results depend on the processing

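The 1 lower and 0 higher enzymes called became 2 and 0 without a filter on low counts, 4 and 3 with DESeq2, and 0 and 0 with library size scaling, the replicate block, limma on log2(TPM + 1) or log2(TPM + 0.1), and the length and GC content correction. With at least 10 counts in every library, upper quartile scaling or a log2 fold change of 1 added they were again 1 and 0. They ran from 0 to 5 lower and 0 to 3 higher when each mouse was left out, the highest without Ksp-Cre/Prdm16fl/fl mouse 3. Where a Prdm16fl/fl mouse was left out, the lone library was taken to vary like the other group. All genes called were 160 in the main fit, 3059 without that mouse, 0 without any other mouse, 1210 with DESeq2, 471 without a filter, 51 with library size, 42 with the GC correction, and 46 and 43 on the TPM scales. With the mouse number as a replicate block 0 genes were called (2061 at an unadjusted p under 0.05, 9 of them among the 33). The numbers share 2 mice, their deviations correlated at 0.00102 and -0.022, and nothing in the labels ties equal numbers together. The 5 other genes of sugar metabolism called lower became 2 with library size, 0 with the block, 11 with DESeq2, 2 on both TPM scales, 3 with the GC correction and 0 to 20 without single mice, and the 0 higher became 0 to 3. The median of the 33 enzymes was -0.0067 with library size, 0.1144 and 0.1151 on the TPM scales.

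Signs turned as follows, and the cause was not tested. On the log2(TPM + 1) and log2(TPM + 0.1) scales, fitted differences became 0.0661 and 0.0673 for Pfkl, 0.1292 and 0.1406 for Pfkfb2, 0.0969 and 0.0971 for Gpi1, 0.0322 and 0.0324 for Gapdh, 0.0214 on both for Pgk1, 0.078 on both for Eno1, 0.2286 and 0.2287 for Ldhb, 0.0707 and 0.0709 for Tkt, 0.0012 and 0.0001 for Pygl, and 0.1144 and 0.1151 for Ugp2. Pfkfb2 was 0.0071 and Ldhb 0.1068 with library size, and Ldhb was 0.0063 with upper quartile scaling. With the GC correction Hk1 was -0.0371, Pkm -0.0453, Ldha -0.0047 and Ldhb 0.1933. Leaving out each mouse gave -0.0996 to 0.1895 for Hk1, -0.648 to 0.0753 for Hk3, -0.2067 to 0.0126 for Pfkfb2, -0.0468 to 0.2108 for Pfkfb3, -0.0108 to 0.1831 for Pkm, -0.0017 to 0.0978 for Ldha, -0.0653 to 0.0611 for Ldhb, -0.219 to 0.1994 for Taldo1 and -1.1556 to 0.06 for G6pc.

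The share of Ldha differed by -0.255 to 0.8939 percentage points when each mouse was left out, and that of Pfkl by -4.3731 to 0.9667, both turning sign. Fitted differences of Fbp1 stayed between -1.05 and -0.77 in all fits. Depth limited the rare enzymes most, with Hk3 at 30 counts in 1 library.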

Other observations

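The other genes of sugar metabolism are given here by route, with no test between routes. Over all genes tested, 21.3% had every Ksp-Cre/Prdm16fl/fl mouse below both controls and 0.872% were called lower. At an unadjusted p under 0.05 in edgeR, 11.2% of all genes were lower and 7.64% higher. Of 10 genes of galactose and uronic acid metabolism 9 were fitted lower, 8 with every Ksp-Cre/Prdm16fl/fl mouse below both controls and 2 (Miox and Dcxr) at an edgeR adjusted p under 0.05, and their median log2 fold change was -0.54. All 4 fructose and polyol genes were fitted lower (median -0.57), 2 of them at an adjusted p under 0.05 (Glyctk and Sord). Of 18 further genes of glycolysis and gluconeogenesis that were tested 13 were fitted lower (median -0.15), with Pcx called. The 8 further pentose phosphate genes had a median of -0.31, with 6 fitted lower and 0 called. At an unadjusted p under 0.05 in edgeR, 2 of them were lower and 1 higher. The 21 further glycogen genes had a median of 0.025, with 12 fitted higher, 9 fitted lower and 0 called. At that unadjusted threshold 3 of them were lower and 2 higher.

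Markers of other nephron segments were also fitted lower in the Ksp-Cre/Prdm16fl/fl mice. This held for 4 of 4 thick ascending limb, 5 of 5 principal cell, 5 of 5 intercalated cell and 4 of 4 podocyte markers, with medians of -0.69, -0.60, -0.73 and -0.74. It also held for 4 of 4 distal convoluted tubule markers, which summed to 1897 and 1172 CPM in the Prdm16fl/fl mice and 1098, 710.3 and 327.5 CPM in the Ksp-Cre/Prdm16fl/fl mice. The 6 fibroblast and pericyte markers were all fitted higher (median 0.54), as were 4 of 4 tested neutrophil markers (median 0.90) and 8 of 10 macrophage and monocyte markers (median 0.25). Endothelial markers were fitted lower in 4 of 5 genes (median -0.13), and T and B cell markers in 5 of 6 tested (median -0.21), with groups that overlapped in all 6. Adipocyte markers summed to 0.17 to 0.47 CPM per library and were not tested.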
